A study of Mus musculus with 19 samples.

Results

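The genes described here are 10 major urinary protein (Mup) genes, Mup1, Mup2, Mup3, Mup7, Mup9, Mup10, Mup16, Mup19, Mup20 and Mup21, chosen by their symbols from the 24054 gene rows of a liver RNA-seq table, which holds 20 rows named Mup and a number. The livers came from 3 L-RalyKO and 3 control mice. Both groups were Raly flox/flox animals on a C57BL/6 background that were fed chow and killed 4 weeks after an adeno-associated virus. The L-RalyKO mice had received AAV8.TBG.Cre, in which the hepatocyte promoter TBG drives Cre recombinase, which removes the floxed exons of Raly, and the controls AAV8.TBG.GFP, which makes green fluorescent protein from the same promoter. In the labels the controls are named wild type, and no age is given. Cells other than hepatocytes should keep Raly in this model. Raly encodes an hnRNP, a nuclear protein that binds RNA. The comparison asks which Mup genes differ in liver when hepatocytes lack it.

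Major urinary proteins are lipocalins, small secreted proteins with a barrel-shaped pocket that holds hydrophobic molecules. Hepatocytes release them into the blood, the kidney passes them into the urine, and there they carry volatile odorants that other mice read as signals of sex and identity. Many Mup genes are more active in male than in female liver, and their transcription depends on pulses of growth hormone acting through STAT5b, on androgens and on glucocorticoids. The genes arose by recent duplication, so that several are close copies of each other.

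The authors used the build mm9 (NCBIM37). There, by the gene models of GENCODE vM1, the Mup genes span chromosome 4 from 59969676 to 61811897. The 10 genes lie on the - strand and their main transcripts have 7 exons, except Mup21 with 6. A group of 7 near-identical genes (Mup1, Mup2, Mup7, Mup9, Mup10, Mup16 and Mup19) encode 180 residues in 543 coding bases, and their coding sequences are 98.7% to 99.8% identical to each other. Mup3, Mup20 and Mup21 are the 3 divergent genes. No pair that includes a divergent gene is more than 94.8% identical, the value of Mup3 and Mup21. The first 60 coding bases are shown because they separate most of these genes, with capitals where a base differs from Mup19 in an alignment of the whole coding sequences, inserted bases included.
Mup19: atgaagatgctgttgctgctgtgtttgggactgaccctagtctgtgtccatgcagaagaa
Mup16: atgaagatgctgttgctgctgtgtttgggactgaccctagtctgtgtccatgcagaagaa
Mup9: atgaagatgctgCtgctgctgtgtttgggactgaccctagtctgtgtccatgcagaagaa
Mup2: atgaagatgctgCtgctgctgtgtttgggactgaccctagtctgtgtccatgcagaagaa
Mup10: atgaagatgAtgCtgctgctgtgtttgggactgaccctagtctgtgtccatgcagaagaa
Mup1: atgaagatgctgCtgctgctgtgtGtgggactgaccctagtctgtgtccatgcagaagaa
Mup7: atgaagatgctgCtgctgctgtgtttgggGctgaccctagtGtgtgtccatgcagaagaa
Mup20: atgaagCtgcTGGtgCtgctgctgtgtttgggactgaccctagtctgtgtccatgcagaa
Mup21: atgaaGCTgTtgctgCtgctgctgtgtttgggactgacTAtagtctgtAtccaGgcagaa
Mup3: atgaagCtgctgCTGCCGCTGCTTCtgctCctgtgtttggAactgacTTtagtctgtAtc

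Mup16 and Mup19 are the same over these bases. Across the whole coding sequence they differ by 1 base, C129T, counted from 1 at the A of the start codon, with the base of Mup19 first. It is the third base of codon 43 and leaves the encoded residue as it is, so that both genes encode the same protein. Mup9 likewise differs from Mup19 by 1 silent base, T13C. Mup2 has 3 differences, of which 1 changes a residue, Mup10 has 3 with 2, Mup1 has 4 with 2, and Mup7 has 6 with 2. The coding bases 99 to 158 of the pair are shown because they hold that difference, in capitals.
Mup19: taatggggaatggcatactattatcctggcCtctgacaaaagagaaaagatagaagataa
Mup16: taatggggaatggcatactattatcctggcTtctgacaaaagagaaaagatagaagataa

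Over their main transcripts Mup16 and Mup19 agree at 921 of 927 aligned bases. A read that falls between the 6 differences cannot be assigned to either from its sequence alone, so what the counting did with such reads bears on the values of both. How the counter treated them is not given in the sources used here. Of all 50-base words in the annotated transcripts of Mup19, 99.3% also occur in another Mup gene, and 8 words are its own. The share is 98.9% for Mup2, 93.3% for Mup9, 87.7% for Mup7, 86.6% for Mup16, 80.5% for Mup10 and 66.0% for Mup1. It is lower for the divergent genes, at 50.1% for Mup20, where nearly all of it is shared with the pseudogene Mup-ps19 (48.0%), 19.3% for Mup21 and 15.3% for Mup3. No word of any of the 10 genes occurs in a protein-coding transcript of a gene outside the family, and other transcripts outside it were not searched. The study's reads were paired and longer than these words. With 100-base words the share stayed at 99.3% for Mup19. It was lower than with 50-base words for the other genes, for instance 77.1% for Mup7 and 74.8% for Mup16. The exons of Mup7 and Mup2 also overlap on the same strand. Values of the 7 near-identical genes are therefore uncertain in how they divide among the copies, and those of Mup3 and Mup21 least so.

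**Figure D1:**
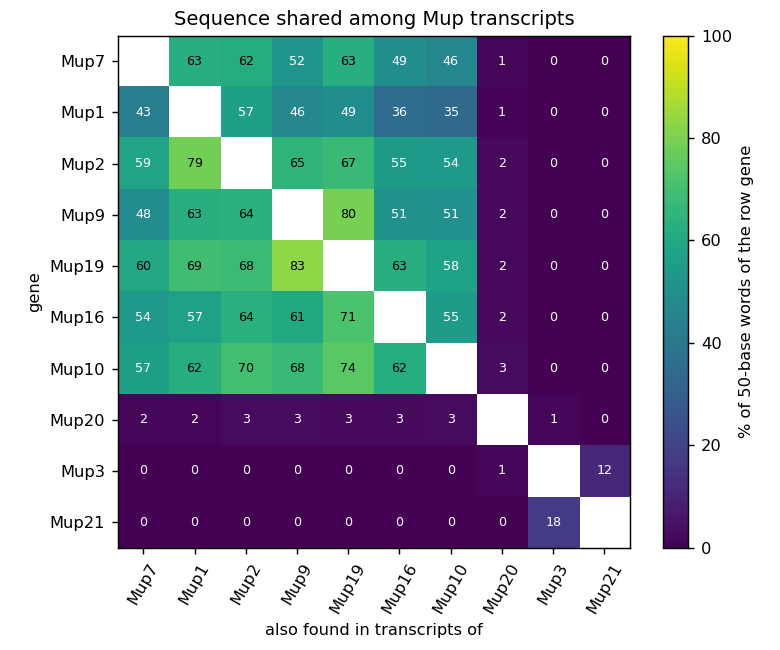
Percent of the 50-base words of each gene (rows) that also occur in the transcripts of another of the 10 genes (columns), from the annotation and not from reads. The 7 near-identical genes form a block of high sharing, and Mup20, Mup3 and Mup21 share little with it.

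Promoters of the genes were read from 250 bases before to 50 bases after the annotated start of the main transcript. The promoters of 2 divergent genes are shown, in NCBIM37, as Mup21 was called as higher and Mup20 encodes a pheromone, with capitals for the motifs searched on both strands.
Mup20 promoter, chr4:61715143-61715442, - strand: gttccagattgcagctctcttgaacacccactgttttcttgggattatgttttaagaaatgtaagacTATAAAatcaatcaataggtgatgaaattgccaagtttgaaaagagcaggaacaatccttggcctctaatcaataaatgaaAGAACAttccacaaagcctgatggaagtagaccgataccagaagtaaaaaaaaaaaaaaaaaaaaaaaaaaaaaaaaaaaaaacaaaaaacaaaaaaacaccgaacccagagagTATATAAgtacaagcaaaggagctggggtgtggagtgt
Mup21 promoter, chr4:61811848-61812147, - strand: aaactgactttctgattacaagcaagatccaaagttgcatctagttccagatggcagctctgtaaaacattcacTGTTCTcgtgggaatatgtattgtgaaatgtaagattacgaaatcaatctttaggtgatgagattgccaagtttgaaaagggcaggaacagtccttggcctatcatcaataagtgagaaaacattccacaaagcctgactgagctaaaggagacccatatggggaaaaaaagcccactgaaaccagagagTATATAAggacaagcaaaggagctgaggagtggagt

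The promoters of Mup3 and Mup21 are 92.4% identical. CCAAT, the letters bound by the factor NF-Y, occurs in 5 of the 10 genes and in 37.9% of 22367 promoters of the annotation. Those 22367 promoters, of protein-coding genes, were placed at the outermost annotated start of the gene and not at that of the main transcript. TTCNNNGAA, the palindrome of STAT5, is in 0 of 10, against 7.94% of promoters. TGTTCT, part of the site of the glucocorticoid receptor, is in 4 of 10, Mup1, Mup3, Mup20 and Mup21, against 16.7%. TATAAA was searched as the TATA box and is in 1 of 10, Mup20, against 13.4%. The variant TATATAA was searched only after these promoters had been read and the letters seen in them, and it is in 10 of 10, against 3.496%, which is a description of copies of one ancestral sequence. In Mup21 it begins 15 bases after the annotated start, and in Mup20 13 bases after it. A match is not evidence of binding, and absent letters say nothing of the factor.

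Values are read counts per gene divided by the effective size of each library, without division by length. The 6 libraries held 28302983 to 38052705 reads, and 1 read is worth 0.0263 to 0.0351. Raly itself was 50.1, 48.6 and 46.8 in controls 1 to 3 and 6.34, 6.61 and 7.39 in L-RalyKO 1 to 3 (log2 fold change -2.67, SE 0.07, adjusted p = 6.92e-07 by limma). Hepatocyte markers were abundant in all livers, with 1 of 8 called by limma, edgeR and voom each, which by limma was Hnf4a, and 3 by DESeq2. Their sum was 90405 to 98879 in controls and 100736 to 101744 in L-RalyKO livers, without overlap. No gene was called by limma among 7 Kupffer cell, 8 endothelial, 8 stellate cell, 3 cholangiocyte and 1 leukocyte markers tested, and 0, 0, 1, 1 and 0 of them had an unadjusted p under 0.05. EdgeR and voom also called none, and DESeq2 called 1, a cholangiocyte marker. Summed Kupffer cell markers were 156 to 234 in controls and 161 to 209 in L-RalyKO livers, and endothelial markers 260 to 269 and 226 to 288. Levels are of whole liver, where fewer cells of a type and less RNA per cell cannot be told apart. Xist was at most 0.378 in every liver and the Y-linked gene Ddx3y between 75.2 and 90.9, as in male liver.

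Among the 10 genes, 9 had a mean value of at least 1 and were tested. Mup16 and Mup19 fell and Mup21 rose at an adjusted p under 0.05 (limma on log2(value + 1), Benjamini-Hochberg over 11580 genes). Of all genes tested, 6.55% were called, 3.36% as higher and 3.19% as lower. The groups did not overlap for 4 of the genes, Mup2, Mup16, Mup19 and Mup21, against 28.1% of all genes. For 3 livers against 3 the smallest p of an exact permutation test is 0.1. The labels number the livers and do not say more of the animals.

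**Figure D2:**
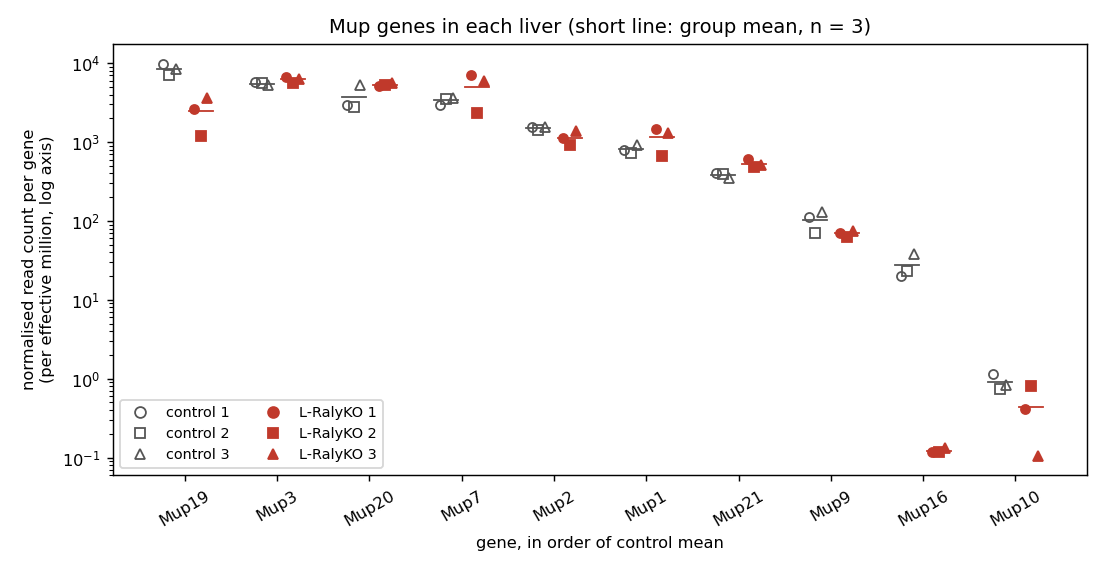
Normalised read count of each gene in each liver on a log axis, open grey symbols for controls and filled red for L-RalyKO, with short lines at group means (n = 3). Mup16 drops from between 19.8 and 38.6 to between 0.116 and 0.132, and L-RalyKO 2 (square) is the lowest L-RalyKO liver for 8 of the 9 tested genes. These include Mup16, where L-RalyKO 1 and 2 each had 4 reads and differ only by library size.

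Mup16 was nearly lost. Its value was 19.8 in control 1, 23.4 in control 2 and 38.6 in control 3, and 0.116, 0.116 and 0.132 in L-RalyKO 1, 2 and 3. In reads this was 665, 668 and 1428 against 4, 4 and 5. Every L-RalyKO liver was far below every control, and the spread among the 3 was no more than 1 read. The mean was 27.3 ± 9.97 (SD, n = 3) in controls and 0.121 ± 0.00887 in L-RalyKO livers, 225-fold lower. On the log2(value + 1) scale, which understates the change of a gene this low, the fold change was -4.60 (SE 0.20, 95% interval -5.07 to -4.13, adjusted p = 3.62e-05 by limma). Mup16 passed the filter on low values only through its controls. The call held in all 18 alternatives, with adjusted p between 4.43e-65 and 0.00384.

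Mup19 was the highest Mup gene in control liver. It was 9863, 7037 and 8352 in controls and 2648, 1204 and 3629 in L-RalyKO livers. All L-RalyKO values were below all control values, and L-RalyKO 2 was the lowest. The mean fell from 8417 ± 1414 to 2494 ± 1220 (SD, n = 3), 3.38-fold, with a log2 fold change of -1.88 (SE 0.34, 95% interval -2.66 to -1.10, adjusted p = 0.0164 by limma). The call was lost without control 1 (-1.76, adjusted p = 0.0628) and with edgeR's robust dispersions, an alternative added after seeing the data (-1.76, adjusted p = 0.121), and over all alternatives adjusted p lay between 0.00126 and 0.121.

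Although Mup16 and Mup19 encode the same protein, they did not fall in proportion. For every 1000 units of Mup19 there were 2.01, 3.33 and 4.62 of Mup16 in controls 1 to 3, and 0.0439, 0.0964 and 0.0363 in L-RalyKO 1 to 3. The groups of ratios did not overlap. The part of shared reads in this was not tested.

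Mup2 was 1568, 1412 and 1546 in controls and 1128, 903 and 1369 in L-RalyKO livers. The groups did not overlap, but the log2 fold change of -0.43 (95% interval -0.73 to -0.13) did not pass the threshold (adjusted p = 0.0932 by limma). DESeq2 called it (adjusted p = 0.00772), as did limma without L-RalyKO 3 (-0.58, adjusted p = 0.0279).

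Mup7 and Mup1 showed the same order of L-RalyKO livers. Mup7 was 2979, 3495 and 3646 in controls and 6980, 2299 and 5877 in L-RalyKO livers (log2 fold change 0.44, 95% interval -0.36 to 1.24, adjusted p = 0.506 by limma). Mup1, a circulating protein linked to glucose metabolism, was 796, 731 and 924 in controls and 1479, 667 and 1316 in L-RalyKO livers (0.42, -0.16 to 1.01, adjusted p = 0.375). In both genes L-RalyKO 1 and 3 were above all controls and L-RalyKO 2 below all of them. Without L-RalyKO 2 both were called as higher by limma, Mup7 at 0.93 (adjusted p = 0.0105) and Mup1 at 0.78 (adjusted p = 0.0121). In 17 of 18 alternatives neither was called, with adjusted p up to 0.883 for Mup7 and 0.730 for Mup1. Leaving out 1 liver at a time gave 0.13 to 0.93 for Mup7 and 0.20 to 0.78 for Mup1.

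Mup9, whose coding sequence is 1 base from that of Mup19, was 112, 69.3 and 130 in controls and 70.3, 63.0 and 74.9 in L-RalyKO livers. Control 2 lay among the L-RalyKO values. The log2 fold change was -0.53 (95% interval -0.97 to -0.08, adjusted p = 0.152 by limma), and without control 2 it was -0.79 (adjusted p = 0.00563). In 17 of 18 alternatives Mup9 was not called, with adjusted p up to 0.345. Leaving out 1 liver at a time gave -0.79 to -0.34. Mup10 was too low to be tested, with 38, 21 and 31 reads in controls and 14, 28 and 4 in L-RalyKO livers, and its groups overlapped.

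Of the divergent genes only Mup21 was called. It was 409, 395 and 353 in controls and 606, 475 and 517 in L-RalyKO livers, all above all controls. Its mean was 386 ± 28.9 and 533 ± 66.5 (SD, n = 3), and the log2 fold change 0.46 (SE 0.09, 95% interval 0.25 to 0.67, adjusted p = 0.0242 by limma). This call was close to the threshold. It was lost in 5 of 18 alternatives, with adjusted p of 0.0527 without an intensity trend, 0.0537 with all genes, 0.0546 without control 2, 0.0583 without L-RalyKO 1 and 0.0569 without L-RalyKO 3.

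Mup20, which encodes darcin, a male pheromone that attracts females, was 2984, 2759 and 5261 in controls and 5083, 5274 and 5639 in L-RalyKO livers. Control 3 was within the range of the L-RalyKO livers and the other two controls far below it. The log2 fold change was 0.60 (95% interval 0.12 to 1.08, adjusted p = 0.134 by limma), and without control 3 it was 0.89 (adjusted p = 0.00181). In 17 of 18 alternatives Mup20 was not called, with adjusted p up to 0.372. Leaving out 1 liver at a time gave 0.43 to 0.89. Mup3 was 5704, 5601 and 5222 in controls and 6742, 5650 and 6244 in L-RalyKO livers (0.17, -0.03 to 0.38, adjusted p = 0.307), with L-RalyKO 2 inside the control range.

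**Figure D3:**
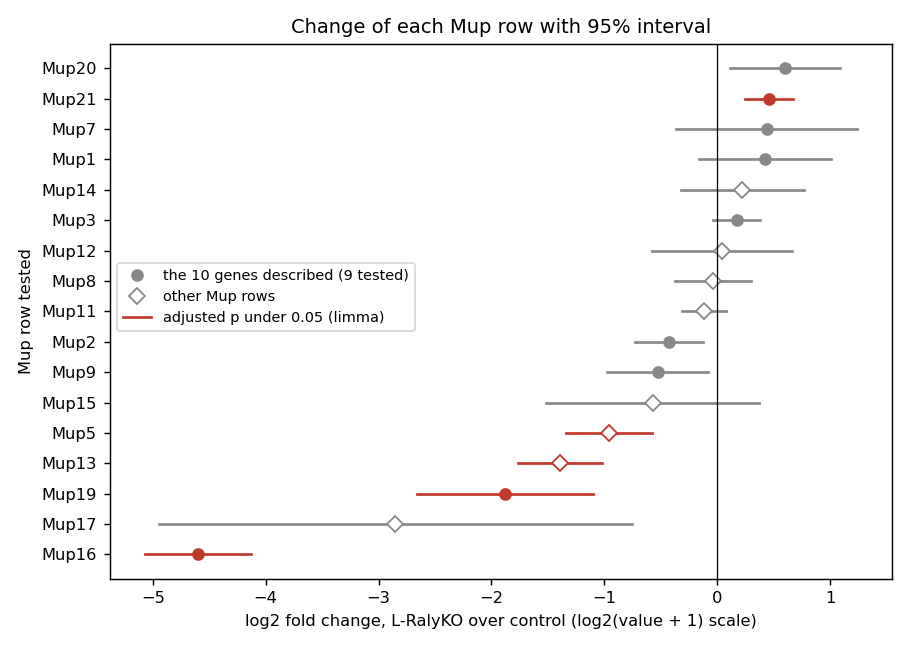
Log2 fold change with its 95% interval for the 17 tested Mup rows, circles for the genes described and diamonds for other Mup rows, red where adjusted p is under 0.05 by limma. Mup16 lies farthest from 0 at -4.60, and Mup21 is the only row called as higher.

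A sum over copies does not depend on how reads were divided among the copies summed, and is given without a test. The 7 near-identical genes together were 15340, 12768 and 14637 in controls and 12307, 5137 and 12267 in L-RalyKO livers, a ratio of means of 0.695 with no overlap between the groups. The 3 divergent genes together were 9097, 8756 and 10836 in controls and 12431, 11400 and 12399 in L-RalyKO livers, a ratio of 1.26, again with no overlap. For all 10 genes the sum was 24437, 21523 and 25473 against 24738, 16537 and 24666, a ratio of 0.923 with overlap, and 1.04 without L-RalyKO 2. L-RalyKO 2 had the lowest sum of the 6 livers, while the other two L-RalyKO livers lay within the control range. The same liver also had the lowest summed endothelial (226), cholangiocyte (32.3) and leukocyte (6.99) markers of all livers, though only 1 leukocyte marker was tested. Its Kupffer cell markers (161) were the lowest among L-RalyKO livers but above control 1 (156). Its stellate cell markers (324) lay between L-RalyKO 1 (305) and L-RalyKO 3 (387), and its hepatocyte markers had the highest sum (101744). The part of these marker levels in the low Mup values of this liver was not tested. The near-identical genes other than Mup19 summed to 5476, 5731 and 6285 in controls and 9659, 3933 and 8638 in L-RalyKO livers. With the near-identical rows that are not among the 10 genes added, 14 rows in all, the ratio was 0.787 and the groups overlapped.

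**Figure D4:**
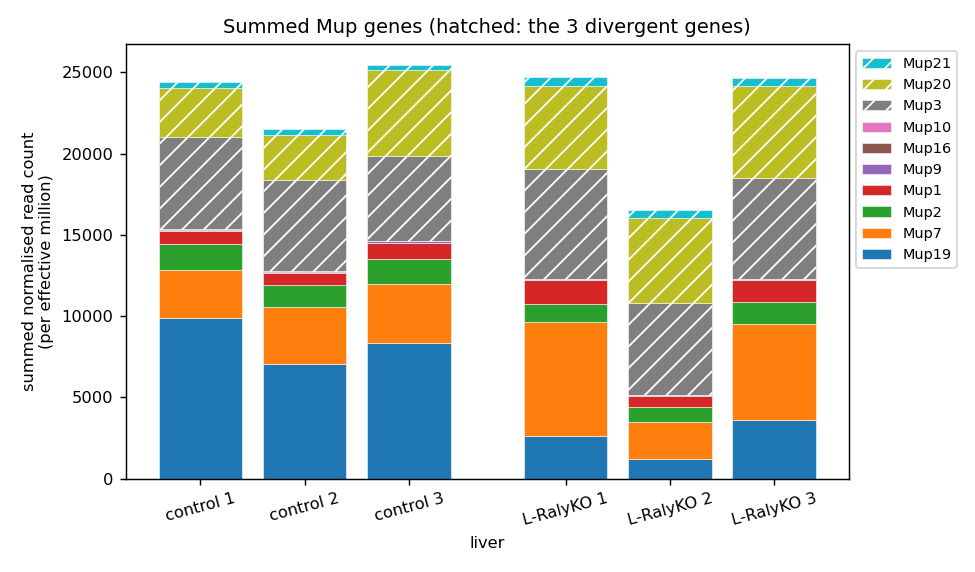
Normalised read counts of the 10 genes stacked for each liver, with hatched segments for the divergent genes Mup3, Mup20 and Mup21. The Mup19 segment is 7037 to 9863 in controls and 1204 to 3629 in L-RalyKO livers, and the stack of L-RalyKO 2 is the lowest at 16537.

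Mup19 made up 40.4%, 32.7% and 32.8% of the summed value in controls 1 to 3 and 10.7%, 7.28% and 14.7% in L-RalyKO 1 to 3. Levels of different genes were compared per kilobase of the main transcript. The order depends on the length used: all annotated exons of Mup1 cover 1584 bases and its main transcript 927, while both are 677 for Mup21. The unknown division of reads among the near-identical copies also bears on it. Mup19 led in controls at 9080 per kilobase, above Mup3 at 5873, Mup20 at 3952 and Mup7 at 3639, where neighbours from Mup3 to Mup7 overlapped in range. Mup2 (1628), Mup1 (881), Mup21 (570), Mup9 (120), Mup16 (29.4) and Mup10 (0.973) followed without overlap between neighbours. In L-RalyKO livers Mup3 came first at 6623 per kilobase and Mup19 was the fourth at 2690. The ranges of neighbours overlapped from Mup3 through Mup20, Mup7, Mup19 and Mup1 to Mup2, and Mup16 was last at 0.131, where its range overlapped that of Mup10 (0.476).

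Of the 10 other Mup rows, 8 were tested and 2 were called, both as lower. Mup13 was 13.5, 10.1 and 13.6 in controls and 4.74, 2.96 and 4.74 in L-RalyKO livers (log2 fold change -1.39, adjusted p = 0.00294 by limma), and Mup5 was 3.07, 1.68 and 1.89 against 0.640, 0.754 and 0.500 (-0.96, adjusted p = 0.0136). In neither did the groups overlap. Mup5 passed the filter on low values only through its controls, and the log2(value + 1) scale understates its change: the ratio of means was 0.285, and the alternatives gave -1.82 to -0.77. Mup17 varied most within the groups, at 47.7, 10.3 and 60.9 against 11.4, 0 and 6.32 (-2.85, adjusted p = 0.106). Mup11 (-0.12), Mup12 (0.04), Mup14 (0.22), Mup15 (-0.57) and Mup8 (-0.04) were not called, with adjusted p of 0.457 to 0.950, and Mup4 and Mup6 were too low to be tested. L-RalyKO 2 was the lowest L-RalyKO liver for 15 of the 17 tested Mup rows, counting Mup16, where L-RalyKO 1 and 2 each had 4 reads.

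The lists that follow were written from general knowledge, with earlier results of these data known, and are described by counts. The median log2 fold change of all genes tested was 0.00. On the growth hormone and STAT5 axis, 13 genes were tested, 2 were called as higher and 1 as lower. Cish and Socs3, inhibitors of cytokine receptor signalling that STAT5 and STAT3 induce, were higher. Cish was 4.86, 3.93 and 11.7 in controls and 34.4, 41.7 and 21.7 in L-RalyKO livers (2.18, adjusted p = 0.00981 by limma), a call lost with edgeR's robust dispersions (0.0968). Socs3 was 2.15, 2.59 and 3.54 against 13.6, 12.3 and 5.18 (1.51, adjusted p = 0.0214), a call lost in 7 of 18 alternatives, 4 of which leave out control 1, control 2, L-RalyKO 1 or L-RalyKO 2, with adjusted p up to 0.0845. Stat5b, the factor that carries the growth hormone signal to male-biased genes, was 57.5, 63.3 and 69.3 against 48.4, 53.1 and 46.4 (-0.35, adjusted p = 0.0346), a call lost in 6 of 18 alternatives, with adjusted p up to 0.110. Ghr, the growth hormone receptor, was not called (0.04, adjusted p = 0.674).

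Control 3, the control with the high Mup20 value, also stood nearer to the L-RalyKO livers in some genes of this axis. In Stat5b it was the control farthest from them. Of the former, 2 genes are given, named after their values were seen. Bcl6, a repressor that opposes STAT5, was 59.3, 48.2 and 13.9 in controls and 8.99, 12.6 and 10.2 in L-RalyKO livers (-1.62, adjusted p = 0.0654 by limma). Socs2, a feedback inhibitor of the growth hormone receptor, was 5.01, 4.31 and 16.0 against 17.1, 15.5 and 13.3 (adjusted p = 0.157). The list had 3 calls with all livers, 5 with DESeq2, and 1 with all genes of at least 1 read, without control 2 or without L-RalyKO 1. Without control 3, 8 genes of the list were called, including Bcl6 (-2.24, adjusted p = 0.000367) and Socs2 (1.52, adjusted p = 0.000812). These 2 genes were named for where control 3 lay, so a larger change without it follows from that choice. Over all genes tested, 335 to 812 were called when 1 liver was left out. With all 6 livers edgeR and DESeq2 called Bcl6 (adjusted p = 0.0416 and 0.0172), and edgeR with robust dispersions (0.185), voom (0.117) and limma without an intensity trend (0.107) did not. The part of this liver in the Mup20 result was not tested beyond the value without it.

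Of 18 genes listed as other possible regulators of Mup transcription, 3 were called as higher. The count was 6 with DESeq2, 5 with edgeR's robust dispersions, 1 without control 1 and 5 without L-RalyKO 3. Zbtb16, a zinc finger factor induced by glucocorticoids, was 9.42, 7.26 and 13.03 in controls and 105.7, 86.3 and 89.8 in L-RalyKO livers (3.15, adjusted p = 0.000119 by limma). Whether Zbtb16 acts on Mup genes was not tested. Foxa2 (0.86, adjusted p = 0.0126) and Hnf4a (0.55, adjusted p = 0.0155), factors that maintain hepatocyte transcription, were higher. Foxa2 was not called without control 1 (0.0501), nor Hnf4a without control 1 (0.0510), control 2 (0.0507) or L-RalyKO 1 (0.0614). Zhx2, a repressor of several liver genes that differ by sex (-0.11, adjusted p = 0.468), and Nr3c1, the glucocorticoid receptor (0.01, adjusted p = 0.945), were not called.

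Genes that differ by sex in liver gave the context for the Mup genes, many of which are male-biased. Of 26 male-biased genes tested, 10 were called as higher and 0 as lower, with a median log2 fold change of 0.27. The largest was Selenbp2, a selenium binding protein, at 89.7, 157 and 103 in controls and 469, 325 and 435 in L-RalyKO livers (1.83, adjusted p = 0.00216 by limma). Serpina1e, a protease inhibitor of a paralog family of its own (0.95, adjusted p = 0.0464), Gstp1, a glutathione transferase (0.71, adjusted p = 0.00196), Ugt2b1, a glucuronosyltransferase (0.60, adjusted p = 0.00254), and C8b, a complement component (0.54, adjusted p = 0.0114), followed. Serpina1e lost its call in 11 of 18 alternatives, with adjusted p up to 0.170. The count of called male-biased genes was 6 without an intensity trend, with all genes, without control 1 and without L-RalyKO 3.

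Of 15 female-biased genes tested, 0 were called as higher and 4 as lower, with a median of -0.43. Cyp2b9, a cytochrome P450, was 65.2, 48.9 and 36.3 in controls and 0.873, 2.15 and 3.18 in L-RalyKO livers (-4.10, adjusted p = 0.000406 by limma). Cd36, a fatty acid transporter (-1.67, adjusted p = 0.0013), Cyp2b13, another cytochrome P450 (-1.56, adjusted p = 0.00363), and Abcd2, a peroxisomal transporter (-0.52, adjusted p = 0.0475), were also lower. Cyp2b13 passed the filter on low values only through its controls, at 2.12, 1.26 and 2.97 against 0, 0.029 and 0.053 in L-RalyKO livers, and its fitted change depended on the scale, from -6.25 to -1.55 over the alternatives. Abcd2 lost its call in 9 of 18 alternatives, with adjusted p up to 0.124.

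**Figure D5:**
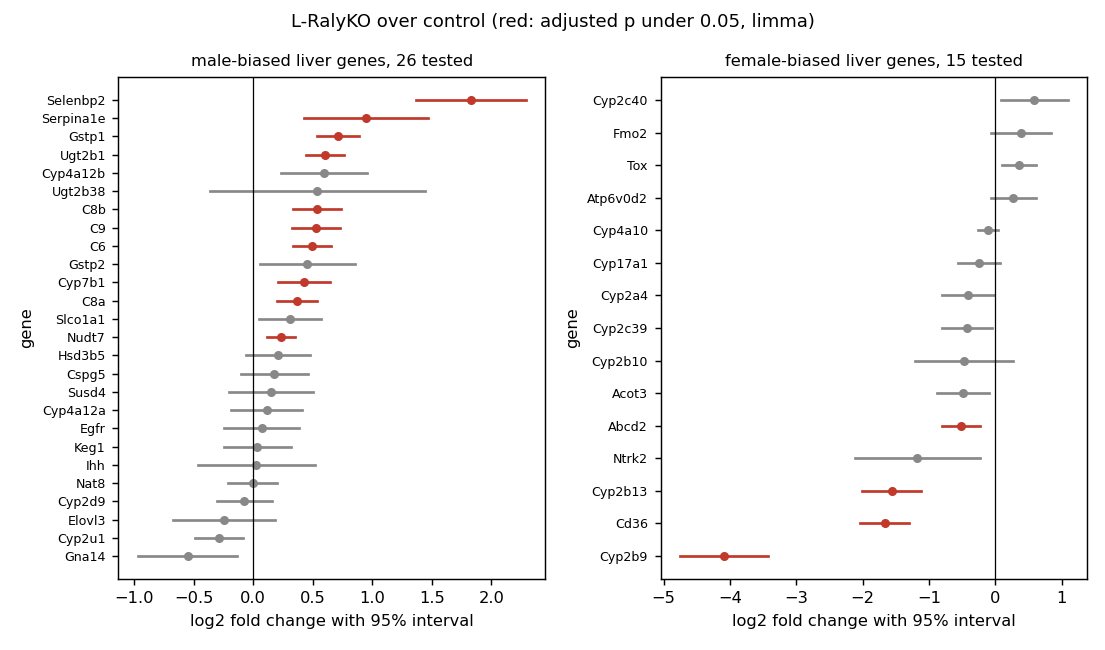
Log2 fold change of L-RalyKO over control with 95% intervals for tested male-biased (left) and female-biased (right) liver genes, red where adjusted p is under 0.05 by limma. The called male-biased genes lie to the right of 0, up to 1.83, and the called female-biased genes to the left, down to -4.10.

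Among the other lipocalins, relatives of the Mup genes with the same fold, 9 were tested and 2 were called as higher, Apom, which carries lipid on lipoproteins (0.52, adjusted p = 0.0166 by limma), and Orm1, an acute phase protein (0.25, adjusted p = 0.0173). Apom lost its call without control 1 (0.0561), L-RalyKO 1 (0.0604) or L-RalyKO 3 (0.0551), and Orm1 without any of 5 livers, all but control 3 (0.0518 to 0.0607). Of 21 abundant secreted hepatocyte proteins limma called 0, with 7 at an unadjusted p under 0.05, and DESeq2 called 6, voom 1 and edgeR 0. Of 4 sex-chromosome genes, Eif2s3y was lower (-0.22, adjusted p = 0.0359), a call lost when any 1 of the 6 livers was left out. Within 1 Mb of the Mup genes on chromosome 4, 18 other genes were tested and 1 was called, Rgs3, a regulator of G protein signalling, at 4.26, 4.80 and 6.68 in controls and 13.2, 11.7 and 11.4 in L-RalyKO livers (1.09, adjusted p = 0.00365).

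The genes whose profile over the 6 livers lay nearest to that of the 10 summed Mup genes were found by the mean absolute distance of centred log2 values among 11563 genes. They were Csf2rb (0.0489), Mgat2 (0.0521) and Prex2 (0.0617), each lowest in L-RalyKO 2. Mgat2, for instance, was 59.5, 53.2 and 60.3 in controls and 60.4, 45.4 and 61.8 in L-RalyKO livers.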

How the data were processed

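RNA-seq of 6 mouse livers was analysed, and the other 13 samples of the series (ATAC-seq and ChIP-seq) were not used here. The study states a larger number of mice per group for its RNA-seq, and further livers were not analysed here. The methods give stranded libraries aligned with TopHat v2.0.2 to mm9, and FPKM from Cufflinks 2.0.2 and Cuffdiff. The values the authors deposited are instead a normalized signal, read counts divided by each library's effective size. Whole reads were recovered for 100% of values in every library (tolerance 0.01). The counter and its handling of reads shared between copies are not given in the sources used here.

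Columns were matched to livers by virus and number. The test was limma 3.58.1 (R 4.3.3) with an intensity trend, on log2(value + 1) of the 11580 of 24054 genes whose mean value reached 1, with Benjamini-Hochberg adjustment. The design had foreseen counts or normalized values, and the latter test applied. P-values measure the spread between these livers. Alternatives were edgeR 4.0.16 and DESeq2 1.42.0 on recovered reads, voom, other scalings, filters and pseudocounts, a replicate block and leaving out each liver. Added after seeing the data were edgeR with robust dispersions and the TATATAA motif. The tests across genes, except edgeR with robust dispersions, were tested on simulated data. The members and lists were chosen with earlier results of these data known. Named are all Mup rows, up to 5 called genes of each list with the largest change, Zhx2, Ghr, Stat5b and Nr3c1, called neighbours, and the 3 genes nearest in profile. Raly was reported as the targeted gene, Xist and Ddx3y as sex markers, and Bcl6 and Socs2 were named after their values were seen. Sequences come from NCBIM37 and GENCODE vM1. A gene that the naming rule covers is not reported here, and only some of the promoters read are printed.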

Additional observations from a re-analysis of the deposited data

How the results depend on the processing

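Between 2 and 4 of the 10 Mup genes were called over the alternatives that keep all livers, and between 2 and 5 when 1 liver was left out, with 5 without L-RalyKO 2. Raly (-2.84 to -2.63), Mup16, Mup13 and Mup5 kept their calls in all alternatives that gave them a value. Signs turned in 4 genes, none of them called, among them Mup15 (-0.57 with all livers). Leaving out 1 liver gave Mup12 between -0.18 and 0.42, with -0.03 without control 1, -0.18 without L-RalyKO 1 and -0.11 without L-RalyKO 3, Mup15 between -0.87 and 0.016, Mup8 between -0.14 and 0.14, and Nr3c1 between -0.049 and 0.047. Total count scaling gave Nr3c1 -0.024. The cause was not tested. The median share of words found in other Mup genes, 83.6% with 50-base words, was 74.0% with 100-base words, which fewer copies can match. The ratio of summed Mup genes was 0.865 to 1.04 without each liver. Calls over all genes were 758, 484 with all genes of at least 1 read, 1088 with DESeq2, and 335 to 812 without each liver. Same-numbered livers deviated together little (r of 0.07, -0.02 and 0.02, against -0.09 to 0.06 for other pairs). These values gave no sign that the numbers pair the livers and cannot exclude it. With the replicate block 4 Mup genes were called, Mup2 being added (adjusted p = 0.0485 by limma). The block also called Mup17 (-2.85, adjusted p = 0.00431 by limma), which made 3 other Mup rows. It raised the list of other possible regulators of Mup transcription from 3 to 5 calls. It lost the calls of Serpina1e (0.0555), Abcd2 (0.0735) and Eif2s3y (0.0624).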
